A study of Drosophila ananassae and Drosophila erecta and Drosophila sechellia with 40 samples.

Results

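Expression of 10 genes of the Notch pathway was followed through the development of the antenna in 6 Drosophila species: the receptor Notch (N), its ligands Delta (Dl) and Serrate (Ser), fringe (fng), neuralized (neur), numb, sanpodo (spdo), Suppressor of Hairless (Su(H)), mastermind (mam) and Hairless (H). The genes were chosen by name, for their roles in the fate choices of sensory lineages, and all 10 were found among the 22594 gene names that the tables of the 4 stages share. RNA was sequenced from antennal discs of larvae in the third instar (3L) and of pupae 8 hours after puparium formation (APF) (p8), and from antennae at 40 hours APF (p40) and in adults (AA). Discs and antennae of about 70 larvae or pupae, or 300 adults, were pooled for a sample, and D. virilis, which was matched by stage, was collected at 10 and 48 hours APF. Of the species, D. sechellia and D. erecta are specialized on a host, while D. simulans, D. ananassae and D. virilis are generalists, each a single wild-type strain with 2 biological replicates per stage (40 libraries), and D. melanogaster (w1118), of which only the authors' means were used. No agent was given to any group.

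In an antennal disc, Notch signaling first limits the number of cells that become sensory organ precursors and then, at each division of a precursor, gives the daughter cells different fates, which is how neurons, sheath, socket and hair cells of a sensillum arise. A ligand on one cell is taken up with the help of Neuralized and pulls on Notch of its neighbor, the freed intracellular part of Notch joins Su(H) and Mastermind on DNA, and genes of the E(spl) complex and the Bearded family are transcribed. Numb keeps Notch off in one daughter cell, Sanpodo is needed for signaling between the daughters, and Hairless turns Su(H) into a repressor where Notch is silent.

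The tables hold species means of normalized read counts, each of which is a sum of whole counts scaled by size factors, and the counts of the 2 libraries behind a mean were recovered from it. The 2 libraries are called library a and b here, in no order, and the 40 libraries carry no replicate number. The libraries had from 17767648 to 26658372 reads at p8 and from 11738398 to 23729891 at p40, while the depth at 3L and in AA is unknown because the highest counts there were not resolved. The median absolute log2 difference between the libraries of a species was from 0.10 to 0.28. All libraries of D. simulans and D. ananassae had from 15.8 to 21.7% odd read counts, against 3.69 to 7.60% in those of D. sechellia, D. erecta and D. virilis. The source of this split is unknown, and the kinds of library named below are defined by this share only. A difference of either specialist or D. virilis from D. simulans or D. ananassae cannot be told apart from one between these kinds. Olfactory neuron markers were high in adult antennae of all species (Orco from 28702 to 50964, and at most 39.4 at 3L). Fat body and hemocyte markers (Fbp1, Lsp2, Hml and NimC1) summed to 32332 in D. simulans and 76691 in D. ananassae at 3L, against 370.5 to 5048 in the others, and eye markers were found in all discs (list sums from 2737 to 6128 at 3L) and in adult D. sechellia (11441, of which ninaE made up 9449). The part of these tissues in the results was not tested. In bulk RNA, fewer cells of a type cannot be told apart from less RNA per cell.

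**Figure D1:**
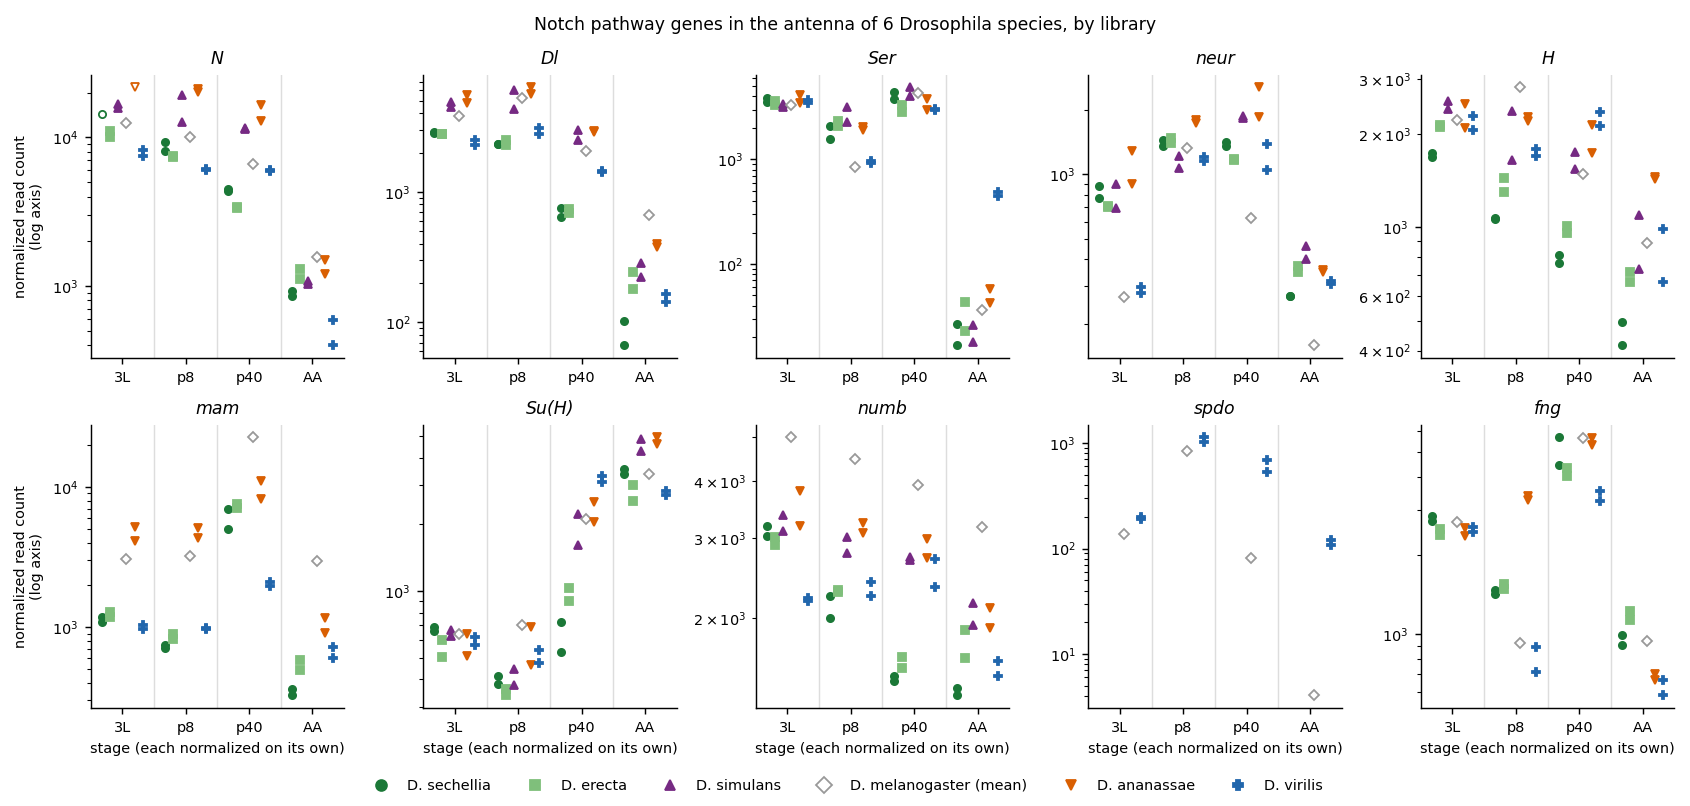
Normalized read counts (log axis) of the 10 genes at 3L, p8, p40 and AA. Each filled point is a library, open points are means of which the libraries were not known (D. melanogaster throughout, and N at 3L in D. sechellia and D. ananassae), and no point is drawn where a gene is listed at 0. Dl at p40 was between 645 and 755 in the 4 specialist libraries and between 1422 and 2970.3 in the other 6, and Ser in AA was between 16.7 and 58.1 except in D. virilis.

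The first question was whether the specialists differed from their generalist relative D. simulans in these genes. In D. erecta they did so mostly in pupae and in D. sechellia also in adults, and the called differences were mostly downward: N, Dl, H and numb were lower in both specialists at p8 and at p40, Su(H) joined them at p40, and neur was slightly higher in both at p8. In D. sechellia, 2 of 6 members fitted passed the test at 3L, both lower (50.3% of all genes fitted passed, and 24.2% were lower), and at p8 6 of 7 passed, 5 of them lower (50.4% and 25.3%). At p40 5 of 7 passed, all lower (42.1% and 20.5%), and in AA again 5 of 7, all lower (48.5% and 24.2%). In D. erecta, 1 of 6 passed at 3L (Dl, with 58.7% of all genes passing) and 5 of 7 at p8, 4 of them lower (57.1%, and 28.3% lower). At p40 all 7 members fitted were lower in D. erecta (48.5%, and 24.0% lower), and in AA 1 of 7 was (Su(H), 59.1%). At p40 the median log2 difference over the 7 members was -1.06 in D. sechellia and -0.76 in D. erecta, beside medians of 0.06 and 0.02 over all genes. The test was limma on log2(normalized count + 1) with 10 libraries a stage and an adjusted p under 0.05, and both comparisons used the same D. simulans libraries. Muscle markers also differed among the species. Of 4 such markers, none of them at 0 in any species, 3 had higher means in both specialists than in the other 4 species at p40 (Mhc, Act88F and wupA). Mlc2 did not, with its highest mean in D. simulans (6364), against 4743 in D. sechellia and 2554 in D. erecta. Mhc, the myosin heavy chain of muscle, was at 11000 in D. sechellia and 5971 in D. erecta against 212 to 369 in the other species, and the sums over the list were 30248 and 18198 against 1685 to 14120. At p8 only Mhc of the 4 was higher in both (1405 and 138 against 2.62 to 35.6), while the sum of 7 eye markers was 10242 in D. sechellia and 7613 in D. erecta against 3452 to 6276. Of these 7 only 2 were higher in both, ninaE (11.7 and 17.3) and toy (2954 and 3403). The markers chp, gl, eya, so and ey were lower in D. erecta than in D. ananassae. The part of muscle and eye tissue in the differences of the members was not tested. The count for D. erecta at p8 fell to 2 without D. erecta library a, and its counts of 1 at 3L and in AA rose to 2 without either D. ananassae library and without D. simulans library b, respectively.

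Between D. sechellia and D. erecta, whose libraries were of one kind, few members were called different before adulthood. Of the members fitted, 1 of 6 passed at 3L (H, with 42.3% of all genes passing), 0 of 7 at p8 (35.0%), 1 of 7 at p40 (N, 29.9%) and 5 of 7 in AA (52.0%), where Dl, H, neur and numb were lower and Su(H) was higher in D. sechellia. At p8 limma gave 1 member at an unadjusted p under 0.05 (H) and 0 also without the trend of its variance on expression. These counts rest on single libraries. The count at 3L was 0 without any 1 library of either species, that at p8 was 1 without D. simulans library a or b, and that at p40 was 0 without D. sechellia library a or any D. erecta or D. virilis library and 3 without either D. ananassae library. In AA the count was 1 without either D. sechellia library, 3 without D. erecta library a and 2 without D. erecta library b.

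**Figure D2:**
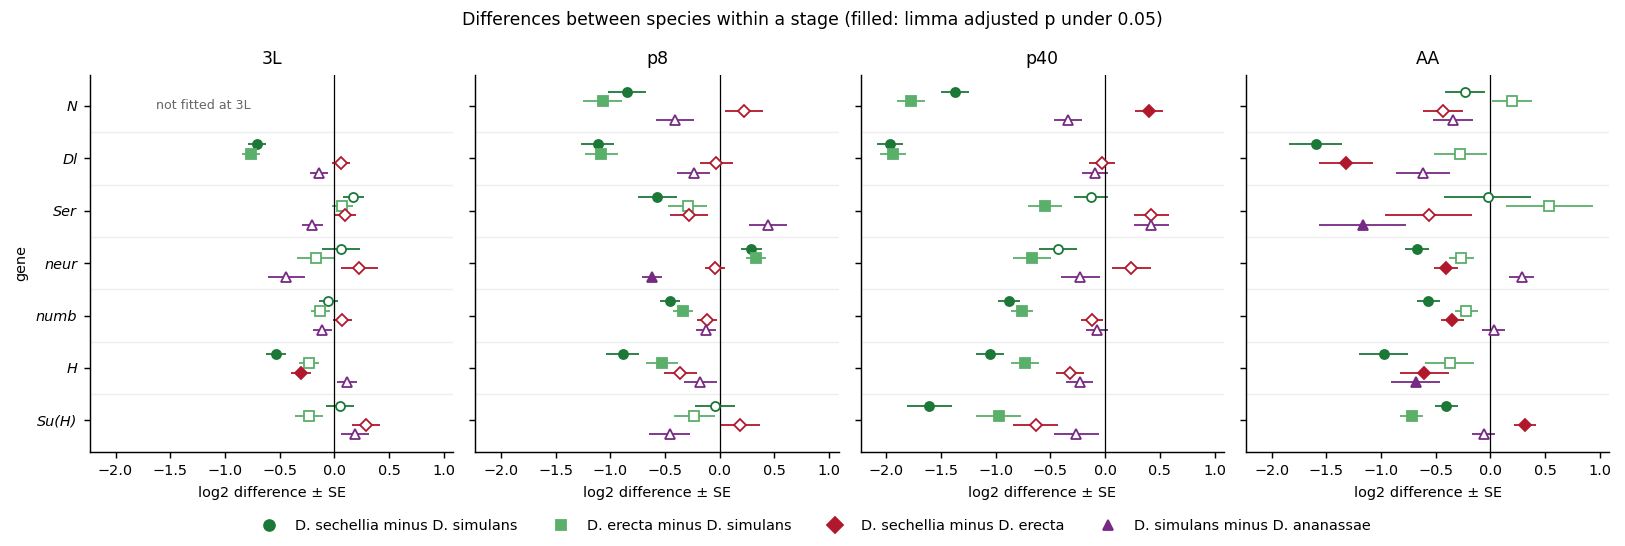
Log2 differences (x axis, ± SE from limma) of 7 members between species at each stage. Filled symbols passed an adjusted p under 0.05. At p40 the differences of the specialists from D. simulans lie from -1.96 to -0.13, those of D. sechellia from D. erecta from -0.64 to 0.42, and those of D. simulans from D. ananassae from -0.34 to 0.42.

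The more distant species were set against the mean of D. sechellia, D. erecta and D. simulans. This mean mixes the kinds of library, so neither contrast lies within one kind. In D. ananassae all members that passed were higher: 2 of 6 at 3L (66.1% of all genes passed and 33.1% were higher), 6 of 7 at p8 (61.4 and 31.1%), 6 of 7 at p40 (57.6 and 28.8%) and 5 of 7 in AA (69.1 and 35.1%). The count at 3L was 1 without D. ananassae library a and 5 without library b, and that in AA was 3 without library b. D. virilis differed in 3 of 6 at 3L, all lower (70.9%), 3 of 7 at p8 (64.7%), 5 of 7 at p40, 4 of them higher (69.2%), and 3 of 7 in AA (68.5%). D. simulans and D. ananassae, whose libraries were of one kind, differed in 0 of 6 members at 3L (56.3% of all genes), 1 of 7 at p8 (neur, 52.1%), 0 of 7 at p40 (42.7%) and 2 of 7 in AA (Ser and H, 61.0%), with 1 member at 3L and 2 at p40 at an unadjusted limma p under 0.05. Against D. virilis at p40, the other comparison within a kind of library, 5 of 7 members were lower in D. sechellia (32.3% of all genes were lower and 66.9% passed) and 5 of 7 in D. erecta (31.4% and 63.8%). These were N, Dl, H, Su(H) and numb in both, and Ser was higher in D. sechellia.

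N, the receptor, was lower in both specialists than in D. simulans in pupae. At p8 its libraries were for D. sechellia 9286 and 8129, for D. erecta 7391 and 7505, for D. simulans 12679 and 19269, for D. ananassae 20269 and 21304 and for D. virilis 6149 and 6072, with a D. melanogaster mean of 9993. Every library of D. simulans and D. ananassae was thus above every other library. At p40 they were 4382 and 4511, 3355 and 3386, 11637 and 11389, 12918 and 16430.0, and 6012 and 5925 in the same order, with a D. melanogaster mean of 6669.8. The split was the same, and the specialists were now also below D. virilis. The log2 difference from D. simulans was -0.85 ± 0.18 (SE) at p8 and -1.37 ± 0.13 at p40 in D. sechellia, and D. erecta differed by -1.07 ± 0.18 and -1.77 ± 0.13, with limma adjusted p from 2.69e-05 to 0.00379. At p40 N was higher in D. sechellia than in D. erecta by 0.40 ± 0.13 (adjusted p = 0.0477), a call that was lost without any 1 library of 8, up to an adjusted p of 0.177. In adults the libraries of all species but D. virilis lay between 863 and 1492, and those of D. virilis were 399.6 and 588 (log2 difference -1.10 ± 0.15 from the mean of the 3 relatives, adjusted p = 0.000216). At 3L N was not fitted, since several pairs of counts gave the same mean in D. sechellia (14301) and D. ananassae (21676); the libraries were for D. erecta 11039 and 10137, for D. simulans 16839 and 15786 and for D. virilis 8224 and 7439.

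Fringe (fng) is a glycosyltransferase that modifies Notch so that Delta activates it more readily and Serrate less. It was listed at 0 in D. simulans at all stages, and since such a 0 may stand for an absent ortholog as well as for an absence of reads, it was fitted without that species. At p8 fng was high in D. ananassae alone: its libraries were 3391 and 3273, against for D. sechellia 1469.7 and 1421, for D. erecta 1486 and 1548, for D. virilis 894 and 711 and a mean of 926 in D. melanogaster. The log2 difference of D. ananassae from the mean of the specialists was 1.17 ± 0.09 (limma adjusted p = 2.33e-05), while at 3L it was -0.09 ± 0.06 (adjusted p = 0.185) and in AA -0.63 ± 0.09 (adjusted p = 0.000427). These differences are between the kinds of library. At 3L the 4 species with libraries were close together, from 2368 to 2835 over the 8 libraries.

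Dl, the ligand that singles out sensory organ precursors, was higher in D. simulans and D. ananassae than in the other species with libraries at 3L, p8 and p40. At 3L its libraries were for D. sechellia 2886 and 2843, for D. erecta 2756 and 2753, for D. simulans 4859.5 and 4494, for D. ananassae 5552 and 4790.0 and for D. virilis 2475 and 2284, with a mean of 3798 in D. melanogaster. At p40 they were 645 and 755, 683 and 743, 2970.3 and 2505, 2881 and 2945, and 1440.2 and 1422, with a mean of 2069.5. All 4 libraries of D. simulans and D. ananassae were above all 6 others at each of these stages. The log2 difference from D. simulans grew from -0.71 ± 0.08 at 3L to -1.12 ± 0.15 at p8 and -1.96 ± 0.12 at p40 in D. sechellia, and from -0.76 ± 0.08 to -1.08 ± 0.15 and -1.94 ± 0.12 in D. erecta (limma adjusted p from 1.1e-05 to 0.000338), where growth across stages was not tested. The specialists were not called different from each other at these stages, with log2 differences of 0.06 (95% interval -0.13 to 0.24), -0.03 (-0.38 to 0.31) and -0.03 (-0.31 to 0.25). Both were below D. virilis at p40, by -1.03 ± 0.12 and -1.01 ± 0.12 (adjusted p = 0.00018 and 0.000229). The fat body and hemocyte marker sums were highest in D. simulans and D. ananassae at 3L and p8, and at p40 D. ananassae had 6500.3, D. erecta 4725, D. simulans 4141, D. sechellia 3334, D. melanogaster 778 and D. virilis 338. At p8 Fbp1 made up 9888 of 12918 in D. simulans and 20061 of 21324 in D. ananassae. The marker Hml went otherwise at p8, lowest in D. ananassae (47.7) and highest in D. melanogaster (392). The part of these tissues in the levels of Dl was not tested.

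In adult antennae Dl set D. sechellia apart from D. erecta too. The libraries were for D. sechellia 103 and 66.7, for D. erecta 179 and 241, for D. simulans 225 and 283, for D. ananassae 379 and 396 and for D. virilis 143 and 165, and the D. melanogaster mean was 659.6. Both D. sechellia libraries were below all others. Dl was lower in D. sechellia than in D. erecta by -1.32 ± 0.24 on the log2 scale (limma adjusted p = 0.00214) and than in D. simulans by -1.60 ± 0.24 (adjusted p = 0.000775), and D. erecta was not called different from D. simulans (-0.28 ± 0.24, adjusted p = 0.355).

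Ser, the other ligand, varied least among species in larval discs and most in adults among the 7 members above 0 in all 6 species. At 3L its libraries lay between 3171 and 4156 in all 5 species, and the mean of D. melanogaster was 3321. The mean absolute log2 fold change (ALFC) over the 15 species pairs, a measure of how far a gene's level varies among species, was 0.105, and 0.357% of 7276 genes had a lower one. In AA the libraries were for D. sechellia 26.7 and 16.7, for D. erecta 23.0 and 43.7, for D. simulans 26.0 and 17.9, for D. ananassae 42.4 and 58.1 and for D. virilis 447 and 489, with a mean of 36.7 in D. melanogaster. These values stand for 20 to 58 reads a library in the first 4 species and for 368 and 606 in D. virilis. D. virilis was higher than the mean of its 3 relatives by 4.21 ± 0.32 on the log2 scale (limma adjusted p = 8.17e-06), whereas at p8 it was lower by -1.24 ± 0.14 (916 and 961 against 1571 to 3199, adjusted p = 9.49e-05). Ser of D. melanogaster was also low at p8, at 848. At p40 Ser was lower in D. erecta (2826 and 3284) than in D. simulans (4881 and 4081), by -0.55 ± 0.16 (adjusted p = 0.0218), which was lost without D. erecta library a or D. simulans library a (up to 0.127).

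Neuralized is the ubiquitin ligase that sends Delta into the cell and marks sensory organ precursors. At 3L neur was low in D. virilis, with libraries of 278 and 296, and in D. melanogaster, with a mean of 268, while it was from 693 to 1279.5 in the libraries of the other 4 species (D. virilis against the mean of its 3 relatives, log2 difference -1.42 ± 0.14, limma adjusted p = 1.56e-05). At p8 the libraries of all species lay between 1069 and 1788, with for D. sechellia 1436 and 1353, for D. erecta 1482 and 1395 and for D. simulans 1069 and 1219. Both specialists were higher than D. simulans there, by 0.29 ± 0.09 and 0.33 ± 0.09 (adjusted p = 0.0312 and 0.0149). The first call was lost without any of 7 libraries, up to an adjusted p of 0.153, and the second without D. erecta library a (0.102). D. simulans was also lower than D. ananassae (1725 and 1788), by -0.62 ± 0.09 (adjusted p = 0.000686), which is within one kind of library. At p40 neur was lower in D. erecta (1174 and 1162) than in D. simulans (1837 and 1876), by -0.67 ± 0.17 (adjusted p = 0.0148, and up to 0.0691 without any 1 of these 4 libraries), and D. sechellia was between them at 1411 and 1350.1 (-0.43 ± 0.17 from D. simulans, adjusted p = 0.0824).

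Numb, an adaptor of endocytosis that one daughter cell inherits, was low in both specialists at p40. At p40 its libraries were for D. sechellia 1489.6 and 1448, for D. erecta 1553 and 1637, for D. simulans 2681 and 2719.9, for D. ananassae 2708 and 2987 and for D. virilis 2693 and 2341, with a mean of 3925 in D. melanogaster, so that both specialists were below all other species. The log2 difference from D. simulans was -0.88 ± 0.10 in D. sechellia and -0.76 ± 0.10 in D. erecta (limma adjusted p = 0.000342 and 0.000621), and that from D. virilis was -0.77 ± 0.10 and -0.65 ± 0.10 (adjusted p = 0.00035 and 0.000862). The specialists were not called different from each other (-0.12, 95% interval -0.35 to 0.12). The mean of D. melanogaster was the highest of the 6 species at all stages.

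Sanpodo, a membrane protein with which Numb interacts, was listed above 0 in 2 species only. It was listed at 0 in D. sechellia, D. erecta, D. simulans and D. ananassae at all stages, where an absent ortholog cannot be told apart from an absence of reads. In D. virilis the libraries were 201 and 189 at 3L, 1130.4 and 1016 at p8, 698 and 529 at p40 and 107 and 122 in AA, and the means of D. melanogaster were 138, 849.7, 80.7 and 4.05. In both species spdo was highest at p8, on all 3 scales used for stages.

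Of the nuclear members, Su(H) and H were lower in both specialists than in D. simulans at p40. Su(H), the DNA-binding protein of the pathway, had at p40 libraries of 531 and 728 for D. sechellia, 1030.5 and 907 for D. erecta, 1614 and 2232 for D. simulans, 2052 and 2534 for D. ananassae and 3304 and 3106 for D. virilis, with a mean of 2118 in D. melanogaster. The 4 specialist libraries were below all others. The log2 difference from D. simulans was -1.61 ± 0.21 in D. sechellia and -0.97 ± 0.21 in D. erecta (limma adjusted p = 0.000591 and 0.00584), and that between the specialists was -0.64 ± 0.21 (adjusted p = 0.0513). At 3L, by contrast, all libraries lay between 504 and 689, and Su(H) and Ser were the 2 members of 6 that did not pass limma's F-test among the 5 species (adjusted p = 0.208 and 0.309), in which 93.3% of all genes passed. At p8, p40 and in AA all 7 members fitted passed, as did 90.4, 89.5 and 94.3% of all genes.

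H, the Hairless co-repressor that holds Groucho and CtBP on Su(H), was lower in D. sechellia than in D. simulans at all 4 stages, by -0.54 ± 0.09, -0.89 ± 0.15, -1.06 ± 0.13 and -0.98 ± 0.22 (limma adjusted p from 0.000437 to 0.00659). At p40 its libraries were for D. sechellia 812 and 766, for D. erecta 961 and 1009, for D. simulans 1750.1 and 1536, for D. ananassae 1739 and 2139 and for D. virilis 2352 and 2116, with a mean of 1482 in D. melanogaster. In AA they were 416 and 496 in D. sechellia and between 665 and 1449.9 in the others. D. sechellia had the lowest libraries at both stages. Against D. virilis, in libraries of the same kind, it was also lower at all 4 stages, by -0.34 ± 0.09, -0.71 ± 0.15, -1.50 ± 0.13 and -0.84 ± 0.22 (adjusted p from 4.44e-05 to 0.0101). Against D. erecta H was called at 3L (-0.31 ± 0.09, adjusted p = 0.0225) and in AA (-0.60 ± 0.22, adjusted p = 0.0485), and both calls were lost without any 1 library of the specialists, and the second also without either D. ananassae library (adjusted p up to 0.104 and 0.210).

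Mastermind, the co-activator that completes the Notch complex on DNA, was listed at 0 in D. simulans and was fitted without it. Its libraries at p8 were for D. sechellia 744 and 712, for D. erecta 895 and 827, for D. ananassae 5138 and 4307 and for D. virilis 983 and 963, and the mean of D. melanogaster was 3199. D. ananassae was higher than the mean of the specialists at all stages, with log2 differences of 1.97 ± 0.09, 2.57 ± 0.08, 0.53 ± 0.17 and 1.25 ± 0.13 from 3L to AA (limma adjusted p from 3.91e-07 to 0.0338). As for fng, these differences are between the kinds of library. At p40 D. melanogaster had a mean of 22579, D. ananassae libraries of 11083 and 8165 and D. virilis libraries of 1958 and 2108. In adults mam was lower in D. sechellia than in D. erecta (364 and 326 against 495 and 579.6, log2 difference -0.63 ± 0.15, adjusted p = 0.0105), as was fng (903 and 991 against 1127 and 1221, -0.31 ± 0.10, adjusted p = 0.0361). With both genes in this fit, 1 of 8 members passed between the specialists at 3L (H, with 43.4% of all genes passing), 1 of 9 at p8 (H, 42.2%), 1 of 9 at p40 (Su(H), 31.2%) and 7 of 9 in AA (52.6%). The call at p40 thus passed from N (adjusted p = 0.0566 without D. simulans) to Su(H) (0.0364), and H was called at p8 (0.00595).

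Libraries of D. simulans and D. ananassae differed from the rest in their share of odd counts. Members whose 4 libraries in these species lay above all 6 others were therefore counted. They were 1 of 6 at 3L (Dl, with 10.2% of all genes above), 3 of 7 at p8 (N, Dl and numb, 11.7%), 3 of 7 at p40 (N, Dl and neur, 8.14%) and 2 of 7 in AA (Su(H) and numb, 9.73%), and none lay below. H, Ser and the remaining members overlapped.

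Across stages N, Dl, Ser and H had their lowest level in AA in 6 of 6 species on all scales used, while the stage of the highest level differed among members and among species. Because the tables of the stages were normalized separately, levels are given as CPM of the column total, with no test, and on 2 other scales (the counts as listed, and after scaling by median ratios). N was highest at 3L in 6 of 6 species (471 to 1209.7 CPM) and lowest in AA in 6 of 6 (28.7 to 86.5), a fall of 9.46 to 16.5-fold, and its lowest stage was AA on all scales while the highest moved to p8 on median ratios in 4 species. Dl fell to its lowest level in AA in all species as well, from 8.54 to 35.0-fold below its highest stage. Ser was lowest in AA in all 6 species too, by 8.02-fold in D. virilis and up to 203-fold in D. simulans. It dipped at p8 (median 104.7 CPM, against 215.6 at 3L and 229.4 at p40), seen in 6 of 6 species as CPM and in 5 on median ratios, where D. simulans was the exception.

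**Figure D3:**
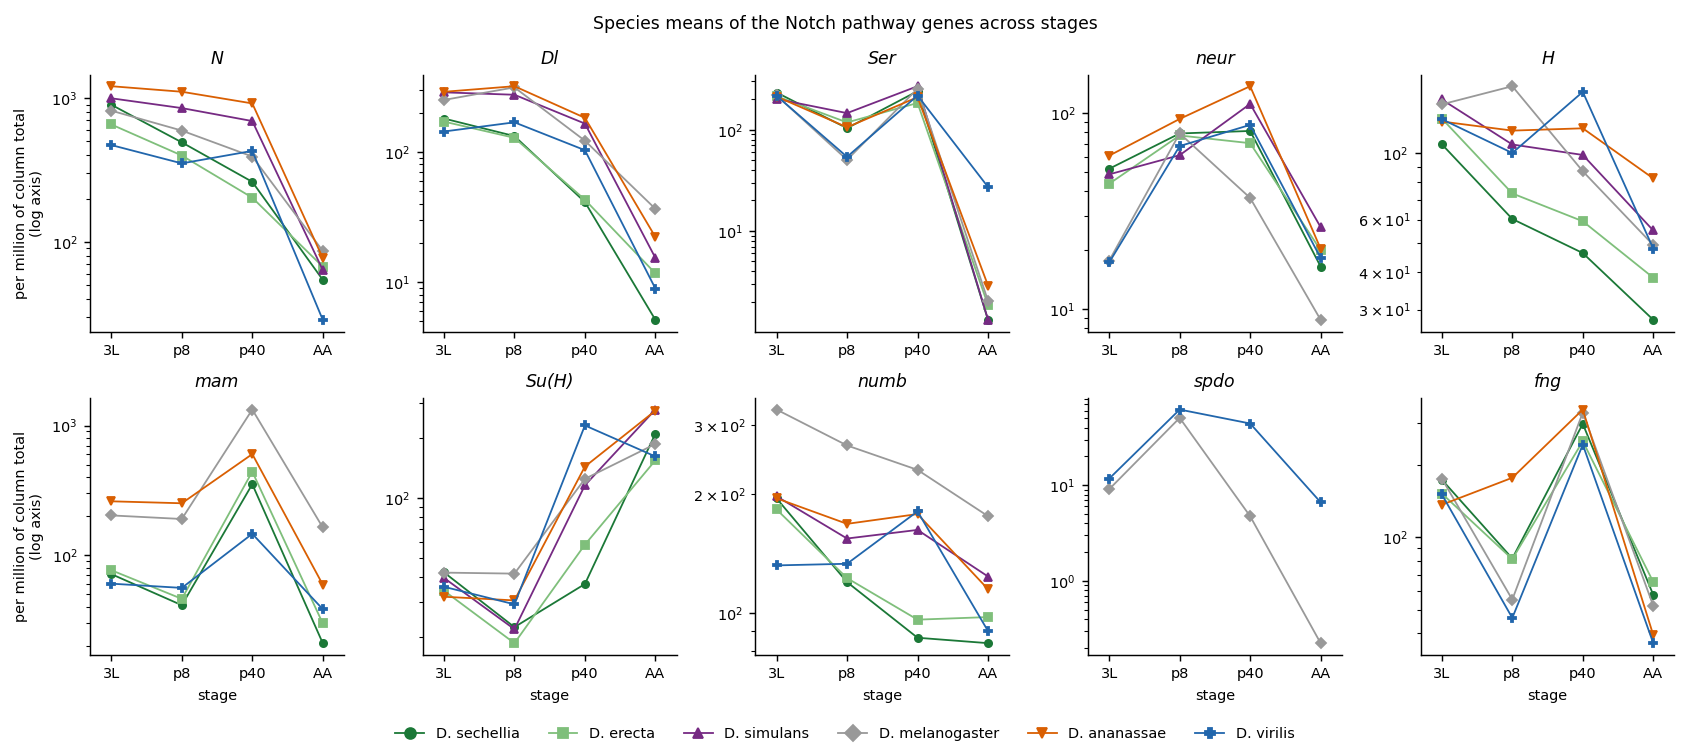
Species means of the 10 genes as CPM of the column total (log axis) at 3L, p8, p40 and AA. Lines join the means of a species and stand for no measurement between stages, and species in which a gene is listed at 0 are left out. N fell to between 28.7 and 86.5 in AA, Su(H) rose to between 154 and 277, and mam and fng were highest at p40 in all 5 species shown.

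The transcripts of fng and mam peaked at p40, when olfactory neurons extend axons and begin to express receptors, in 5 of 5 species on all 3 scales. The median of fng was 152.5, 81.2, 298 and 51.9 CPM from 3L to AA, and that of mam was 76.6, 56.0, 441 and 38.4. By its median over the species, Su(H) ran the other way from N after p8, while both fell from 3L to p8. Its median was 37.8, 25.9, 120.1 and 198 CPM from 3L to AA, with AA the highest stage in 5 of 6 species and p40 in D. virilis. The medians of neur were 46.1, 77.9, 84.2 and 19.1, with the highest stage at p40 in 4 species and at p8 in D. erecta and D. melanogaster. H was lowest in AA in 6 of 6 species, at a median of 48.7 against 130.5 at 3L, and numb moved least by its median over the species (1.89-fold), by 1.60 to 2.33-fold between its highest and lowest stage.

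Ratios between members of the same column are free of the scaling of a stage, and were tested across species. Numb rose against N after p8: the ratio numb to N had a median of 0.248, 0.275, 0.376 and 1.74 from 3L to AA, rising in 6 of 6 species from p8 to p40 (mean log2 change 0.39 ± 0.15, SD) and from p40 to AA (2.42 ± 0.63). H fell against Su(H), from a median ratio of 3.91 at p8 to 0.850 at p40 (-2.10 ± 0.53) and 0.257 in AA (-1.91 ± 0.74), in 6 of 6 species at each step. Neur rose against Dl in 6 of 6 species from 3L to p8 (1.12 ± 0.61) and from p8 to p40 (1.24 ± 0.53). Each of these changes had an exact sign-flip p of 0.03125, the smallest that 6 species allow, two-sided, and 0.0469 after adjustment over the 12 changes tested. The ratios of numb to N and of H to Su(H) did not pass from 3L to p8 (0.11 ± 0.20 and 0.09 ± 0.16, adjusted exact p = 0.239 and 0.3125). The ratio of neur to Dl did not pass from p40 to AA (0.55 ± 0.67, adjusted exact p = 0.1875). The species share ancestry, which the test does not take into account.

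**Figure D4:**
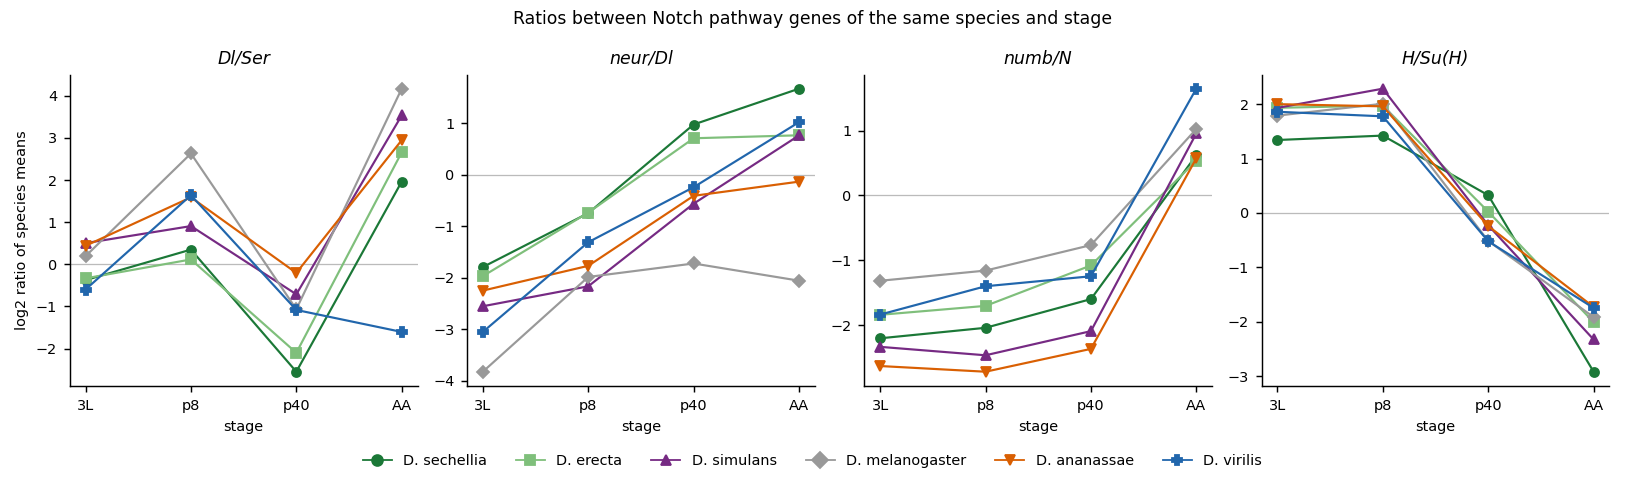
Log2 ratios of species means (y axis) of 4 pairs of members at 3L, p8, p40 and AA, each line a species. The ratio of H to Su(H) fell in every species after p8 and that of numb to N rose in every species after p8, and the ratio of Dl to Ser in AA was between 1.96 and 4.17 in 5 species and -1.60 in D. virilis.

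The balance of the ligands swung back and forth in development. Dl rose against Ser from 3L to p8 in 6 of 6 species (mean log2 change 1.23 ± 0.90, SD) and fell from p8 to p40 in 6 of 6 (-2.49 ± 0.77), both with an adjusted exact p of 0.0469. From p40 to AA it rose in 5 of 6 species, by up to 5.23, and fell in D. virilis by 0.52 (mean 3.56 ± 2.12, adjusted exact p = 0.0833). At p40 the log2 ratio was -2.55 in D. sechellia, -2.10 in D. erecta and from -1.08 to -0.20 in the other 4 species. For fng against N, over the 5 species with reads, the median ratio was 0.216, 0.160, 0.846 and 0.970 from 3L to AA, and it was left out of the tests because fng is listed at 0 in D. simulans.

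The median member varied less among the 6 species than the median gene. In pupae all 7 members differed less between the specialists than, on average, between D. erecta and D. simulans or D. melanogaster. So did 73.7% of all genes at p8 and 66.8% at p40. The median over 7 members of the mean ALFC was 0.448, 0.622, 0.749 and 0.639 from 3L to AA, beside 0.699, 0.825, 0.838 and 0.828 over all genes. Above the median gene were neur at 3L, N, Dl and Su(H) at p40, and Dl and Ser in AA. The members mam, fng and spdo, listed at 0 in some species, did not enter. A convergence index was taken as the mean of the ALFC of D. erecta with D. simulans and with D. melanogaster less that with D. sechellia, so that a positive value means that D. erecta was closer to D. sechellia than to these 2 species on average. D. ananassae and D. virilis did not enter it. It was positive for 3 of 7 members at 3L (68.0% of all genes; 4 once the species were shifted to a median difference of 0, which turned N), 7 of 7 at p8 (73.7%), 7 of 7 at p40 (66.8%) and 3 of 7 in AA (57.4%). Dl had the highest index of the members at p8 and p40 (1.08 and 1.71) and the lowest in AA (-0.35). The medians over the members were 0.54 at p8 and 0.54 at p40, beside 0.30 and 0.20 over all genes. The same D. simulans libraries enter here and in the tests above. Since the specialists are of one kind of library and D. simulans of the other, a positive index cannot be told apart from a difference between the kinds.

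As a description over the 24 species and stage means, log2 CPM of N ran most closely with those of ds (dachsous, a protocadherin; Pearson r = 0.974), shg (E-cadherin; 0.972) and ptc (the Hedgehog receptor; 0.968), among 7006 genes above 0 in all means. Dl was most like N (0.961), Inx2 (0.948) and Dok (0.941). Ser was most like ec (0.975), miple2 (0.972) and CG11069 (0.959), neur like hbs (0.879), Dyrk2 (0.878) and RhoGEF64C (0.866), and H like fz4 (0.927), Hsp27 (0.914) and row (0.905). Su(H) was most like CG8726 (0.935), CG11426 (0.922) and Tusp (0.918), and numb like BCL7-like (0.907), Cdc42 (0.904) and Ras85D (0.903). The points share libraries and the scaling of a stage, and N and Su(H) had an r of -0.68.

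A wider list of 46 genes of the pathway was read for comparison. Of those fitted, 16 were higher and 10 lower in D. sechellia than in D. simulans at 3L (41 fitted, with 26.1% of all genes higher and 24.2% lower), 11 and 13 at p8 (42, 25.1 and 25.3%), 10 and 15 at p40 (40, 21.6 and 20.5%) and 9 and 15 in AA (36, 24.3 and 24.2%), with median log2 differences of 0.13, -0.13, -0.27 and 0.01. Between the specialists 10 were higher and 7 lower in D. sechellia at 3L (42.3% of all genes passed), 6 and 6 at p8 (35.0%), 3 and 4 at p40 (29.9%) and 7 and 10 in AA (52.0%). The genes that carry ligands into the cell were higher in D. sechellia than in D. simulans at 3L in 3 of 3 (26.1% of all genes were higher): lqf (epsin) by 3.03 ± 0.06 and shi (dynamin) by 4.09 ± 0.08 on the log2 scale were the largest (limma adjusted p = 2.63e-09 and 1.58e-09). Their sum at that stage was 2232 in D. simulans and 3047 in D. melanogaster and 4547 to 8667 in the other species. The means of lqf and shi were higher in D. sechellia than in D. simulans at the later stages too. At p40 they were 5207 against 664 and 3916 against 223, while the third gene, mib1, was lower in D. sechellia (2064 against 3324). Of the 8 genes of asymmetric division, 6 were lower in D. sechellia than in D. simulans at p40 (20.5% of all genes were lower). They were led by aurA (-3.46 ± 0.48), the kinase Aurora A, and baz (-1.99 ± 0.10), the polarity protein Bazooka, while aPKC was higher (1.75 ± 0.23). The value for aurA rests on low counts, a D. sechellia mean of 8.43 set against a D. simulans mean of 95.7.

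Several target genes of Notch were higher in D. sechellia than in D. erecta in discs. Of 15 genes of the E(spl) complex and the Bearded family, 12 were fitted at 3L and at p8. At 3L 5 of these were higher in D. sechellia and 1 was lower (20.9 and 21.4% of all genes), and at p8 4 were higher and 1 was lower (17.0 and 18.0%). E(spl)m2-BFM, a Bearded family member, had libraries of 1529.6 and 1321 in D. sechellia at 3L, against 818 and 966 in D. erecta (log2 difference 0.68 ± 0.10, limma adjusted p = 0.000692), and 946 and 1522 against 674 and 769 at p8 (0.74 ± 0.20, adjusted p = 0.0206). E(spl)m4-BFM had 1002 and 752 against 584 and 616 at 3L (0.53 ± 0.14, adjusted p = 0.0155) and 1472 and 2345 against 974 and 1239 at p8 (0.76 ± 0.20, adjusted p = 0.0179). In each pair the libraries of the specialists did not overlap, and those of D. simulans lay above both for E(spl)m4-BFM at p8 (3073 and 2960.1). The exception was Ocho, another Bearded family gene, with 20.8 and 22.2 in D. sechellia at p8, against 118 and 124 in D. erecta (-2.43 ± 0.25, adjusted p = 0.000151).

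**Figure D5:**
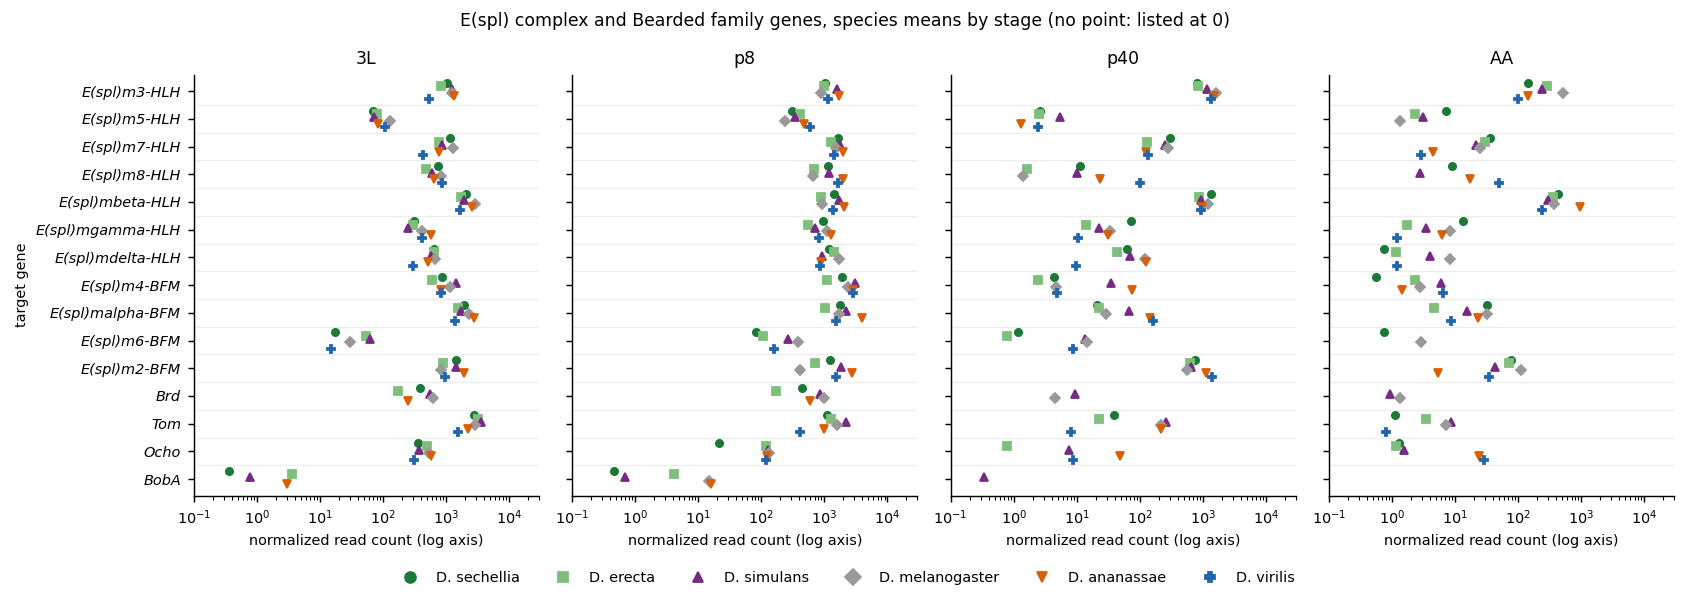
Normalized read counts (log axis) of 15 target genes, E(spl) complex and Bearded family, as species means at each stage. The sums over the list were from 9419 to 15949 at 3L and from 468 to 1189 in AA, and genes without a point in a species are listed at 0 there.

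Summed over the list, the targets were lower at p40 than in discs and lowest in AA in all species. Their sum was from 567 to 1049 CPM at 3L, 573 to 1149 at p8, 156 to 296 at p40 and 27.2 to 68.2 in AA over the 6 species. Not every gene followed the sum. As listed, E(spl)m3-HLH was higher at p40 than at 3L in D. virilis (1341 against 542) and D. melanogaster (1594 against 1235), among others. In adults, among genes named after their values were seen, the transcriptional repressors E(spl)mbeta-HLH and E(spl)m3-HLH had species means of 236 to 964 and of 99.4 to 520.3. Of the fate genes of the lineage, nompA, which encodes a protein that sheath cells secrete, went from at most 129.7 at 3L to between 5474 and 18879 at p40. The glial gene repo was 1352 in D. sechellia and 32.9 in D. erecta at 3L (log2 difference 5.34 ± 0.38, limma adjusted p = 5.73e-06), and the fat body and hemocyte sum was 5048 and 1952. The other glial marker, nrv2, went the other way, with means of 2662 in D. sechellia and 3350 in D. erecta. In D. virilis repo was at 1090. The part of these tissues in the differences of the targets was not tested.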

How the data were processed

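Poly(A) RNA of pooled antennal discs and antennae was sequenced in 5 species with 2 libraries per species and stage (40 libraries). Per the labels and the study's methods, stranded paired-end reads were mapped with BWA (0.7.8) to annotated transcriptomes, the most highly expressed transcript of each ortholog was kept and counts were normalized with DESeq2 within a stage. The deposited values are species means of these normalized counts (unit: signal), 24 columns in 4 tables, and no column holds a single library. A value is not per length, so levels are not compared between genes.

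A mean is a sum of 2 whole counts divided by 2 size factors, and these counts were solved for at 97.2% or more of the values at 3L and AA and all values at p8 and p40. N at 3L in D. sechellia and D. ananassae had several solutions. The method was tested on simulated data. At each stage log2(normalized count + 1) of genes with a mean of 10 or more in all solved libraries was fitted on species with limma (3.58.1, trend, R 4.3.3) over 7199, 7779, 8196 and 7766 genes at 3L, p8, p40 and AA, Benjamini-Hochberg adjusted over all, with an adjusted p under 0.05 as a call. The p-values measure only the spread between these samples. Ratios of members were tested by exact sign-flips over the species, since stages were normalized separately. Comparisons between D. simulans and D. ananassae and with D. virilis, the split by odd counts and the fit without D. simulans were chosen after seeing the data. The members and gene lists were chosen with earlier results of these data known. Named genes outside the members and the tissue markers were up to 3 per list with the largest called difference, and the 3 most like each member. Alternatives were another pseudocount, other minimums, a shift of the libraries to a median difference of 0, limma without trend, fits without D. virilis and without each library.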

Additional observations from a re-analysis of the deposited data

Results flagged for a closer look

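The sign of 3 called differences turned between stages, and the turn itself was not tested because stages were normalized separately. For neur, D. sechellia was above D. simulans at p8 (log2 difference 0.29) and below it in AA (-0.67). D. erecta was above D. simulans at p8 (0.33) and below it at p40 (-0.67), again for neur. For Ser, D. virilis was below the mean of D. sechellia, D. erecta and D. simulans at p8 (-1.24) and above it in AA (4.21).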

How the results depend on the processing

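The convergence index of N at 3L reversed, from -0.0065 to 0.0030, once the species were shifted to a median difference of 0, and no other result reversed under an alternative that was run. No paired analysis was possible because the recovered libraries carry no replicate number. The counts of members called between D. sechellia and D. erecta moved most: from 1 to 0 at 3L and at p40 and from 5 to 3 in AA without the variance trend, from 1 to 2 at p40 with a pseudocount of 10, to 0 there with no minimum and without D. virilis, from 1 to 2 at 3L with unsolved values set to the closest pair (which adds N), and from 0 to 1 at p8 without D. simulans, where the call at p40 passed from N to Su(H). D. erecta against D. simulans went from 1 to 2 at 3L with the closest pair and in AA without the trend. The members that differed among species at 3L went from 4 to 2 without D. virilis. Leaving out 1 library gave 0 to 1 (3L), 0 to 1 (p8), 0 to 3 (p40) and 1 to 6 (AA) between the specialists, 1 to 2 (3L), 2 to 6 (p8) and 1 to 2 (AA) for D. erecta against D. simulans, and 1 to 5 (3L) and 3 to 6 (AA) for D. ananassae. Of the single members' differences refitted without a library, 1251 kept their side of the threshold, 70 lost it and 29 passed it. The changes of ratios kept theirs without any 1 library. Adult Ser rests on 20 to 58 reads a library outside D. virilis.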
